A study of Mus musculus with 9 samples.

Results

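Expression of 10 genes of the cellular response to low oxygen was examined in mouse lung after injurious mechanical ventilation. They are Hif1a and Epas1, which encode the oxygen-regulated α subunits of the hypoxia-inducible factors (HIF), Egln3, which encodes an enzyme that marks these subunits for destruction, the glucose transporter gene Slc2a1, the glycolysis genes Hk2, Pfkfb3 and Ldha, the pyruvate dehydrogenase kinase gene Pdk1, the mitophagy gene Bnip3 and the vasoactive peptide gene Adm. The genes are given by name and were chosen with earlier results of these data known. They are 10 of the 27203 genes and assembled loci in the deposited table. All 10 were found there, and all 10 passed the filter on low values.

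RNA was sequenced from whole lungs of 9 male C57BL/6 mice aged 6 to 8 weeks, 3 in each of 3 groups. Control mice were intubated but not connected to a ventilator. Mice of the other groups were ventilated for 4 h at a high tidal volume of 20 ml/kg, without positive end-expiratory pressure and with room air, and their lungs were taken at the end of ventilation (VILI 0 h) or 6 h later (VILI 6 h), where VILI stands for ventilator-induced lung injury. Ketamine and xylazine served as anaesthetics and pancuronium as muscle relaxant, and no genetic change was made in any group. Controls were therefore free of the ventilator itself, of its stretch and of 4 h under it, and these elements cannot be told apart in a comparison with them. The paper also reports hypoventilation in the control mice. Its blood gas measurements found arterial oxygen tension significantly below control at VILI 6 h, and not at VILI 0 h. The part of blood gases in the results was not tested.

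Values are FPKM, which count sequenced fragments relative to transcript length and to the size of the library, summed over the rows of a gene. FPKM sums of the libraries lay between 366360 and 388459, and 20196 to 20838 genes were above 0 in a library. The table gives no read counts. The paper's supplement lists mapped reads per library, but counts per gene were not derived from them. Here only the spread of the 3 mice of a group shows how precise a value is. Differences between groups were tested by limma on log2(FPKM + 0.1) across 19378 genes, and a gene is said to have risen or fallen where its unadjusted P was under 0.05, the threshold of the study. The p-values printed are Benjamini-Hochberg values adjusted over all 19378 genes, so a gene that rose may have an adjusted p above 0.05. No VILI 6 h library was nearest to its own group over all genes. The mean Euclidean distance of replicate 1 on log2(FPKM + 0.1) was 123.5 to the other VILI 6 h libraries and 89.48 to the controls, that of replicate 2 was 103.8 to its group and 93.25 to VILI 0 h, and that of replicate 3 was 115.6 to its group, 115.4 to VILI 0 h and 137.5 to the controls, the largest of all. Results at VILI 6 h are therefore given without replicate 1 or 3 where this changes a call.

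In cells with enough oxygen, prolyl hydroxylases of the Egln family modify the HIF α subunits, which are then bound by the von Hippel-Lindau protein and degraded. When oxygen falls, the subunits persist, pair with Arnt and bind a short DNA core, and genes for glucose uptake, glycolysis, mitochondrial turnover and blood vessel tone are transcribed. HIF α activity is set largely at the level of the protein, which RNA does not measure, and several of the target genes also respond to inflammatory, glucocorticoid and nutrient signals. In the lung, Epas1 is known for its high expression in endothelium, and Hif1a for its role in myeloid cells.

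The HIF core was looked up in the promoters of the members, since most of these genes are known HIF targets and 6 of them rose after ventilation. RefSeq promoter windows (GRCm38.p6), running from 250 bases before to 50 bases after a transcription start, were available for 9 members in 12 windows. Epas1 had no window. The letters ACGTG or GCGTG on either strand, the core of the HIF response element, occurred in 11 of the 12 windows, against 43.8% of the 32851 windows in the table. The windows of the members held 40.3% to 71.7% G and C against a median of 52.7% in all windows, and a core of 5 letters that contains CG is more often met in windows rich in both. A match in letters is a description and not a binding site.

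The 250 bases before the start are shown for the 4 members that rose at both times by 1 or more on the log2 scale in at least one comparison and have a match there, and for Pdk1, a member that did not pass the test at either time. Sequences read 5′ to 3′ on the strand of the gene and capitals mark the core matches. CACGTG is a palindrome in which a match on each strand overlaps the other, CACGT is ACGTG read on the opposite strand, and CACGC is GCGTG read on the opposite strand. Bnip3 lies at chr7:138909507-138909756 on the minus strand, Hk2 at chr6:82774455-82774704 on the minus strand, Adm at chr7:110627407-110627656 on the plus strand, the internal start of Pfkfb3 at chr2:11502091-11502340 on the minus strand and Pdk1 at chr2:71872974-71873223 on the plus strand.
Bnip3: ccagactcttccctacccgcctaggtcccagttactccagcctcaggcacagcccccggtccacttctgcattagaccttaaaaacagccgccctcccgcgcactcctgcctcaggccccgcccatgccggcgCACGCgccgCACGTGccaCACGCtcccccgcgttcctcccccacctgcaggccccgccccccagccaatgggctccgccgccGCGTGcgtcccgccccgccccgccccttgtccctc
Hk2: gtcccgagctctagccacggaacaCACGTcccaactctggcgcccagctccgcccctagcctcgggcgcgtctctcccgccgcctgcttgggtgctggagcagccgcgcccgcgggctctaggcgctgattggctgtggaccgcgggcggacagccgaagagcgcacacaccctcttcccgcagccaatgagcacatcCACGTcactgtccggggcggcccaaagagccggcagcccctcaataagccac
Adm: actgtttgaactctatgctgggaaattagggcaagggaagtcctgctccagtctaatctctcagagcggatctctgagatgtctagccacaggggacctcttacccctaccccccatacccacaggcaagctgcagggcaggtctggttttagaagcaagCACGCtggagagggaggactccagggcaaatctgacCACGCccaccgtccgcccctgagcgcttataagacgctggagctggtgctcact
Pfkfb3: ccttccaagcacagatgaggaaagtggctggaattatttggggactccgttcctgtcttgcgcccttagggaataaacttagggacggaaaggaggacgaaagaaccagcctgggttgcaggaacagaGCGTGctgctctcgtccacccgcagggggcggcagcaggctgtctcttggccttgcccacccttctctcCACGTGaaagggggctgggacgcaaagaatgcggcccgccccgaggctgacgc
Pdk1: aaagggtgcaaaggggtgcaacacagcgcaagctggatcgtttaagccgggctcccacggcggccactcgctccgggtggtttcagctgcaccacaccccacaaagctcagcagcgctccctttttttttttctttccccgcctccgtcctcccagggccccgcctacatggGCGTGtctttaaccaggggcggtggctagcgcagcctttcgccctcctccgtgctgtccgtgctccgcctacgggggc
Bnip3 carried 5 matches, the most of these 5 windows, among them a palindrome that begins at base -108 from the start. The Pfkfb3 window also held a palindrome, which begins at base -53, the Hk2 window held 2 matches on the opposite strand and the Adm window 2. The Pdk1 window shown held 1 match before its start, at base -78, so a match was present both in members that rose and in a member that did not. Pfkfb3 and Pdk1 each had a further window that is not shown. The upstream one of Pfkfb3 held 1 match and that of Pdk1 held 0.

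Members that passed the test were higher after ventilation, and the rest lay on both sides of 0. Immediately after ventilation (VILI 0 h vs control) 5 of the 10 rose and 0 fell, where 6.81% of all genes tested rose and 9.35% fell. At VILI 6 h vs control 6 of the 10 rose and 0 fell, where 8.17% of all genes rose and 12.2% fell. Between the times (VILI 6 h vs VILI 0 h) 1 of the 10 rose and 0 fell, where 5.06% of all genes rose and 4.94% fell. The median log2 fold change of the members was 0.44, 0.66 and 0.24 in the 3 comparisons, beside -0.07, -0.09 and -0.02 for all genes. None of the 10 passed an adjusted p of 0.05 in limma in any comparison, where 55, 136 and 0 of all genes did (0.284%, 0.702% and 0.0%). This count rested on single libraries: without VILI 6 h replicate 1, Hk2, Pfkfb3, Bnip3 and Adm passed it at VILI 0 h, as did 6.93% of all genes, and Hif1a, Slc2a1, Hk2, Pfkfb3, Bnip3 and Adm at VILI 6 h, as did 23.3% of all genes. Without VILI 6 h replicate 3, Hk2, Bnip3 and Adm passed it at VILI 0 h (1.27% of all genes). With no VILI 6 h library in the fit, the same 4 members passed it at VILI 0 h as without replicate 1 (8.24% of all genes). Settings moved the count of all genes as well. With no filter on low values it was 1 at VILI 0 h and 75 at VILI 6 h, and with a pseudocount of 1 it was 15 and 111. No member passed an adjusted p of 0.05 at VILI 0 h or VILI 6 h in these settings. VILI 0 h and VILI 6 h were set against the same 3 control mice, so these comparisons are not independent of each other. Groups without overlap, in one direction or the other, were common. They made up 33.5%, 24.6% and 12.5% of all genes in the 3 comparisons, and the share above every control at both times was not computed.

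**Figure D1:**
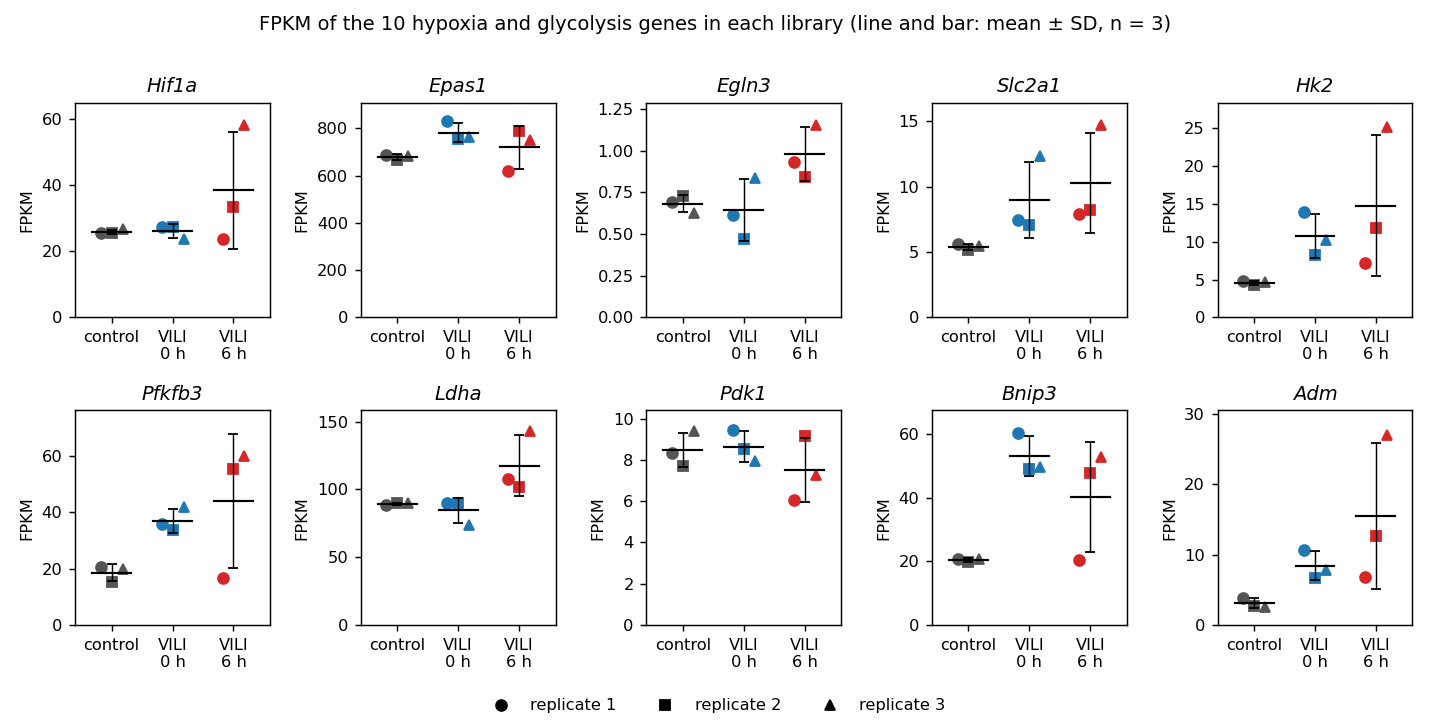
FPKM (vertical axes, each from 0) of the 10 genes in each library by group, with symbols for the replicate, a line at the group mean and a bar of 1 SD (n = 3). Hk2, Slc2a1 and Adm lie above every control in all 6 ventilated libraries, while the circle of VILI 6 h replicate 1 sits at the level of the controls for Bnip3 (20.6 FPKM) and Pfkfb3 (16.6 FPKM). Of all genes, 33.5% at VILI 0 h and 24.6% at VILI 6 h have no overlap with the controls in one direction or the other.

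Beginning with the transcription factors, Epas1 (chromosome 17, 86753700 to 86833410, plus strand, GRCm38) encodes HIF-2α and was the most abundant member. Its level was 688, 667 and 682 FPKM in the 3 control mice, 830, 754 and 763 FPKM at VILI 0 h and 618, 789 and 752 FPKM at VILI 6 h. All VILI 0 h values lay above the controls, where 33.5% of all genes had no overlap in one direction or the other, while VILI 6 h values lay on both sides of them. The log2 fold change was 0.20 (95% interval -0.06 to 0.46, adjusted p = 0.429) at VILI 0 h and 0.08 (-0.19 to 0.34, adjusted p = 0.724) at VILI 6 h, neither passing the test in limma. Without VILI 6 h replicate 1, the spread of all groups was estimated lower and the VILI 0 h difference of 0.20 passed the unadjusted threshold (adjusted p = 0.178, limma).

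Hif1a (chromosome 12, 73901375 to 73947530, plus strand) encodes HIF-1α. Control mice held 25.5, 25.5 and 26.5 FPKM, and VILI 0 h mice 27.3, 27.2 and 23.6 FPKM. VILI 6 h mice held 23.7, 33.3 and 58.1 FPKM. The VILI 0 h values spread around those of the controls, and the VILI 6 h libraries ran from below every control to more than any other library. Log2 fold changes were 0.01 (-0.58 to 0.59, adjusted p = 0.992) at VILI 0 h and 0.47 (-0.12 to 1.05, adjusted p = 0.328) at VILI 6 h. The VILI 6 h value turned on single libraries: without replicate 1 it was 0.76 (adjusted p = 0.0261, limma), and without replicate 3 it was 0.12 (adjusted p = 0.741).

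A ratio of both factors within a library does not depend on how that library was scaled. Epas1 FPKM were 27.0, 26.1 and 25.7 times those of Hif1a in the controls, 30.4, 27.7 and 32.3 times at VILI 0 h and 26.1, 23.7 and 13 times at VILI 6 h. Epas1 was thus the more abundant of the pair per length in all 9 libraries, with the lowest ratio in VILI 6 h replicate 3. The log2 ratio of Hif1a to Epas1 differed from control by -0.20 at VILI 0 h (exact two-sided permutation test, p = 0.1) and by 0.39 at VILI 6 h (exact p = 0.2), and VILI 6 h exceeded VILI 0 h by 0.59 (exact p = 0.1). With 3 against 3 mice, 0.1 is the smallest p that 20 divisions can give.

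Egln3 (chromosome 12, 54178981 to 54203860, minus strand) encodes the prolyl hydroxylase PHD3, itself a HIF target, and was the lowest member. Its level was 0.690, 0.727 and 0.628 FPKM in control mice, 0.617, 0.473 and 0.839 FPKM at VILI 0 h and 0.933, 0.843 and 1.16 FPKM at VILI 6 h. The VILI 6 h values exceeded every control and every VILI 0 h value, where 24.6% and 12.5% of all genes had no overlap in one direction or the other, and the margin over VILI 0 h replicate 3 was narrow. No comparison passed the test with all 9 libraries: log2 fold changes were -0.10 (adjusted p = 0.882), 0.45 (adjusted p = 0.331) and, for VILI 6 h vs VILI 0 h, 0.56 (-0.02 to 1.13, adjusted p = 0.511, limma). Among 18 alternative analyses, VILI 6 h vs control passed in 1 and VILI 6 h vs VILI 0 h in 4. The latter included the fit without VILI 0 h replicate 3 (log2 0.74, adjusted p = 0.616, limma). Egln3 contributed 1.72% ± 0.101, 1.43% ± 0.368 and 2.06% ± 0.436 (SD, n = 3) of the FPKM of Egln1, Egln2 and Egln3 in the 3 groups.

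**Figure D2:**
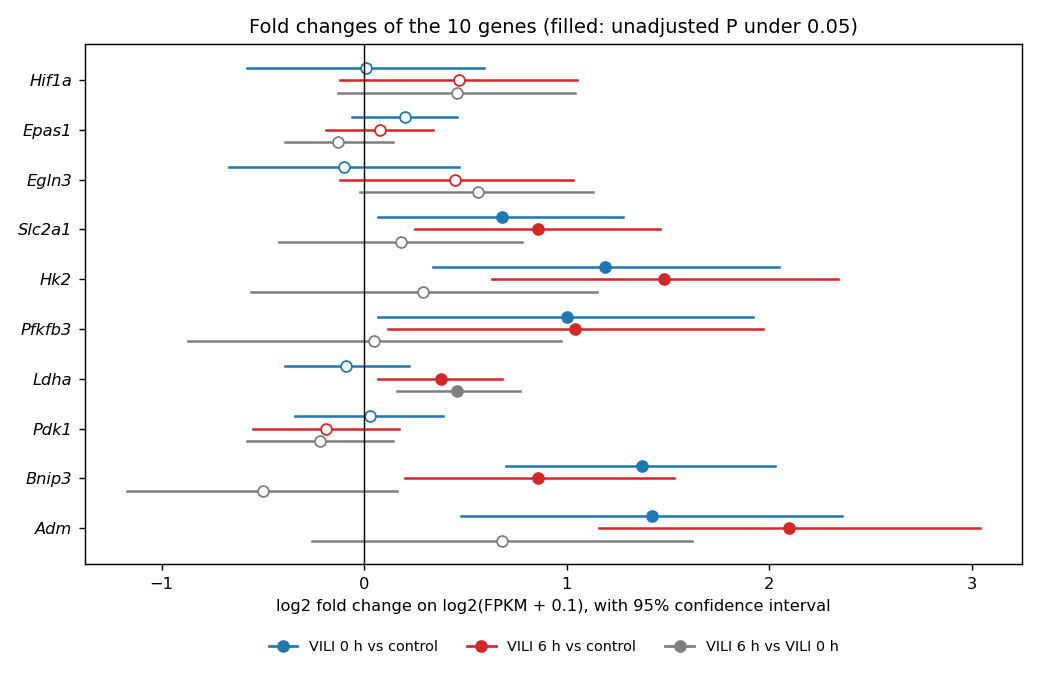
Log2 fold change on log2(FPKM + 0.1) (horizontal axis) of each of the 10 genes with its 95% confidence interval in VILI 0 h vs control (blue), VILI 6 h vs control (red) and VILI 6 h vs VILI 0 h (grey), filled where P was under 0.05 in limma. Filled points lie right of 0 for Slc2a1, Hk2, Pfkfb3, Bnip3 and Adm in both comparisons with control, and Ldha is filled at VILI 6 h (0.38) and between the times (0.46).

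Slc2a1 (chromosome 4, 119108711 to 119137983, plus strand) encodes the glucose transporter GLUT1. Levels were 5.6, 5.14 and 5.48 FPKM in control mice, 7.47, 7.10 and 12.3 FPKM at VILI 0 h and 7.89, 8.23 and 14.7 FPKM at VILI 6 h. Each of the 6 ventilated mice exceeded each control, and replicate 3 was the highest of both VILI groups. Of all genes, 33.5% at VILI 0 h and 24.6% at VILI 6 h had no overlap with the controls in one direction or the other. Slc2a1 rose 1.60-fold at VILI 0 h (log2 0.68, 0.07 to 1.28, adjusted p = 0.257, limma) and 1.81-fold at VILI 6 h (log2 0.86, 0.25 to 1.46, adjusted p = 0.140). The VILI 0 h call was lost without any 1 of the controls and without VILI 0 h replicate 3, where the log2 fold change was 0.42. Without VILI 6 h replicate 1 the VILI 6 h value was log2 1.0 (adjusted p = 0.0326), and without VILI 6 h replicate 3 it was 0.57 (adjusted p = 0.299, limma). Slc2a3, which encodes GLUT3, a transporter abundant in leukocytes, is measured beside it: Slc2a1 made up 66.9% ± 2.87 of the FPKM of both in controls, 48.9% ± 4.07 at VILI 0 h and 57.1% ± 8.16 at VILI 6 h (SD, n = 3).

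Hk2 (chromosome 6, 82725025 to 82774454, minus strand) encodes hexokinase 2, which phosphorylates glucose as it enters the cell. Control mice held 4.75, 4.29 and 4.63 FPKM, VILI 0 h mice 13.9, 8.18 and 10.3 FPKM, and VILI 6 h mice 7.22, 11.8 and 25.2 FPKM. Every ventilated mouse exceeded every control, and the lowest of the 6 was VILI 6 h replicate 1. Lack of overlap with the controls, in one direction or the other, was met in 33.5% of all genes at VILI 0 h and 24.6% at VILI 6 h. Hk2 rose 2.28-fold at VILI 0 h (log2 1.19 ± 0.38 SE, adjusted p = 0.179, limma) and 2.80-fold at VILI 6 h (log2 1.48 ± 0.38, adjusted p = 0.101). Both calls held in 19 of 19 alternative analyses, and without VILI 6 h replicate 1 the values were log2 1.19 (adjusted p = 0.0367) and 1.9 (adjusted p = 0.0048). Among Hk1, Hk2 and Hk3, the share of Hk2 was 21.5%, 22.0% and 24.0% in controls, 51.8%, 33.3% and 37.9% at VILI 0 h and 24.8%, 34.3% and 55.3% at VILI 6 h, so each ventilated mouse lay above the controls.

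Pfkfb3 (chromosome 2, 11471433 to 11554077, minus strand) encodes an enzyme that makes fructose 2,6-bisphosphate, the activator of phosphofructokinase. Levels were 20.6, 15.2 and 20.1 FPKM in control mice, 35.7, 33.6 and 41.8 FPKM at VILI 0 h and 16.6, 55.5 and 60.0 FPKM at VILI 6 h. VILI 0 h values lay above all controls, whereas VILI 6 h replicate 1 lay among the controls and the other two VILI 6 h libraries above all of VILI 0 h. Pfkfb3 rose 1.99-fold at VILI 0 h (log2 1.0, 0.07 to 1.92, adjusted p = 0.275, limma) and 2.06-fold at VILI 6 h (log2 1.04, 0.12 to 1.97, adjusted p = 0.203). Leaving out VILI 6 h replicate 1 moved the VILI 6 h value to log2 1.64 (adjusted p = 0.000471) and the VILI 0 h value to an adjusted p of 0.00473 with log2 1.0. The VILI 0 h call was lost without any 1 of the controls or of the VILI 0 h libraries, and the VILI 6 h call without replicate 2 or 3 of VILI 6 h or of control. Pfkfb3 gave 35.7% ± 4.29 of the FPKM of the Pfkfb1 to Pfkfb4 genes in controls, 49.7% ± 1.5 at VILI 0 h and 52.1% ± 15.1 at VILI 6 h (SD, n = 3).

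Ldha (chromosome 7, 46841475 to 46855627, plus strand) encodes the lactate dehydrogenase A chain, which forms lactate from pyruvate. Control mice held 88.5, 90.0 and 89.8 FPKM, VILI 0 h mice 90.2, 90.0 and 73.9 FPKM, and VILI 6 h mice 108, 102 and 143 FPKM. At VILI 6 h each mouse exceeded each control and each VILI 0 h mouse, and at VILI 0 h replicate 3 lay below the rest. VILI 6 h values had no overlap with control and with VILI 0 h, in one direction or the other, for 24.6% and 12.5% of all genes. Ldha rose 1.30-fold at VILI 6 h vs control (log2 0.38, 0.07 to 0.68, adjusted p = 0.179, limma) and 1.38-fold at VILI 6 h vs VILI 0 h (log2 0.46, 0.16 to 0.77, adjusted p = 0.329), the one member that passed the test between the times with all 9 libraries. Without VILI 6 h replicate 1, Hif1a, Hk2, Pfkfb3 and Adm were higher and passed it too, where 22.4% of all genes passed in either direction. Pdk1 was lower and passed it without VILI 6 h replicate 2 (log2 -0.37, adjusted p = 0.487, 9.84% of all genes), and Bnip3 without replicate 3 (log2 -0.75, adjusted p = 0.468, 9.68% of all genes). Egln3 was higher and passed it without VILI 0 h replicate 3 (log2 0.74, adjusted p = 0.616, limma, 7.26% of all genes). None of these had an adjusted p under 0.05. At VILI 0 h vs control the log2 fold change of Ldha was -0.09 (-0.39 to 0.22, adjusted p = 0.797). The difference from control was 0.23 without VILI 6 h replicate 3 (adjusted p = 0.381), and its call was also lost without control replicate 1. Ldha supplied 60.8% ± 1.14, 56.5% ± 5.18 and 68.3% ± 7.17 (SD, n = 3) of the FPKM of Ldha and Ldhb in the 3 groups.

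The table lists Ldha in 12 transcript rows, and the value of a single row was not stable between mice of one group. The row with the highest mean held 86.0, 9.17 and 82.2 FPKM in the 3 control mice, while another row held 0, 39.9 and 0 FPKM in those mice. The sum over rows differed by less than 2 FPKM between them. A like pattern occurred in VILI 0 h replicates 1 and 3 and in VILI 6 h replicate 2, so that the share of the top row ran from 10.2% to 97.1% of the gene. Sums per gene were therefore used throughout. For the other members with several rows the top row held 64.1% to 92.2% of Hif1a and 89.3% or more of Slc2a1, Hk2, Pfkfb3 and Bnip3.

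**Figure D3:**
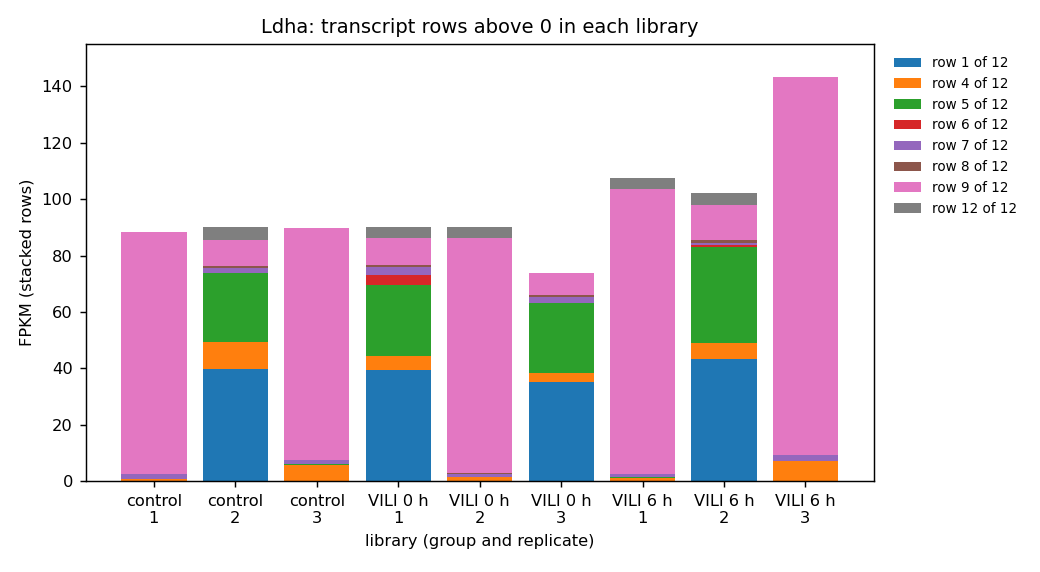
FPKM of the 8 Ldha transcript rows above 0 (of 12), stacked in each of the 9 libraries (vertical axis in FPKM from 0). The make-up by row differs sharply in control 2, VILI 0 h 1 and 3 and VILI 6 h 2, while the column heights of the 3 controls run from 88.5 to 90.0 FPKM.

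Pdk1 (chromosome 2, 71873224 to 71903858, plus strand) encodes a kinase that switches off pyruvate dehydrogenase and so keeps pyruvate out of the mitochondrial cycle. Levels were 8.35, 7.72 and 9.38 FPKM in control mice, 9.45, 8.51 and 7.95 FPKM at VILI 0 h and 6.07, 9.14 and 7.28 FPKM at VILI 6 h. The 3 groups overlapped. Log2 fold changes were 0.03 (-0.34 to 0.39, adjusted p = 0.954) at VILI 0 h and -0.19 (-0.55 to 0.17, adjusted p = 0.51) at VILI 6 h, so a change of more than 0.55 in size lay outside both intervals. Its share of the FPKM of Pdk1 to Pdk4 was 23.4% ± 1.73 in controls, 14.7% ± 1.87 at VILI 0 h and 16.0% ± 2.01 at VILI 6 h (SD, n = 3), with Pdk4 the family member that rose.

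Bnip3 (chromosome 7, 138890836 to 138909519, minus strand) encodes a mitochondrial outer membrane protein that takes part in mitophagy and cell death. Its level was 20.8, 19.7 and 20.9 FPKM in control mice, 60.5, 49.1 and 49.8 FPKM at VILI 0 h and 20.6, 47.7 and 52.8 FPKM at VILI 6 h. VILI 0 h values lay far above the controls, and at VILI 6 h replicate 1 lay among the controls and the other two libraries near VILI 0 h. Bnip3 rose 2.58-fold at VILI 0 h (log2 1.37 ± 0.30 SE, adjusted p = 0.0833, limma), the smallest P of a member at that time, and 1.82-fold at VILI 6 h (log2 0.86 ± 0.30, adjusted p = 0.166). Without VILI 6 h replicate 1 these became log2 1.37 (adjusted p = 0.000281) and 1.29 (adjusted p = 0.000376). The VILI 6 h call was lost without VILI 6 h replicate 2 or 3. Between the times the log2 fold change of Bnip3 was -0.50 (-1.17 to 0.16, adjusted p = 0.618). Of the FPKM of Bnip3 and its relative Bnip3l, Bnip3 gave 28.7%, 26.2% and 25.3% in controls, 50.0%, 43.6% and 46.8% at VILI 0 h and 32.1%, 48.0% and 52.9% at VILI 6 h, above every control in each ventilated mouse.

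Adm (chromosome 7, 110627661 to 110629820, plus strand) encodes the precursor of adrenomedullin, a peptide that widens vessels and tightens the endothelial barrier. Control mice held 3.87, 2.74 and 2.59 FPKM, VILI 0 h mice 10.7, 6.70 and 7.88 FPKM, and VILI 6 h mice 6.87, 12.6 and 27.0 FPKM. All 6 ventilated mice exceeded all controls, with VILI 6 h replicate 3 the highest. Lack of overlap with the controls, in one direction or the other, was met in 33.5% of all genes at VILI 0 h and 24.6% at VILI 6 h. Adm rose 2.68-fold at VILI 0 h (log2 1.42 ± 0.42 SE, adjusted p = 0.150, limma) and 4.29-fold at VILI 6 h (log2 2.1 ± 0.42, adjusted p = 0.0596), the largest fold change of a member at VILI 6 h. At VILI 0 h Adm and Bnip3 (log2 1.37) were close, and Bnip3 was the higher of both with a pseudocount of 1 (1.33 against 1.2), without control replicate 3 and without VILI 0 h replicate 1. Both calls held in 19 of 19 alternative analyses, and at VILI 6 h the log2 fold change was 1.59 without replicate 3 and 2.57 without replicate 1 (adjusted p = 0.00171, and 0.025 at VILI 0 h). The difference between the times was 0.68 (-0.26 to 1.62, adjusted p = 0.631).

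Within libraries the members moved in different combinations. In the VILI 0 h libraries 9, 8 and 7 of the 10 genes lay above every control, and in the VILI 6 h libraries 5, 9 and 9, where 26.9% to 35.1% of all genes tested did. VILI 6 h replicate 1 exceeded the controls for Egln3, Slc2a1, Hk2, Ldha and Adm, was at their level for Bnip3 and Pfkfb3 and lay below them for Hif1a, Epas1 and Pdk1. VILI 6 h replicate 3 had the highest value of all 9 libraries for Hif1a, Egln3, Slc2a1, Hk2, Pfkfb3, Ldha and Adm. At VILI 6 h 7 of the members passed the test without replicate 1, and 3 (Slc2a1, Hk2 and Adm) without replicate 3, beside 6 with both, where 38.8%, 14.1% and 20.4% of all genes passed in either direction.

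**Figure D4:**
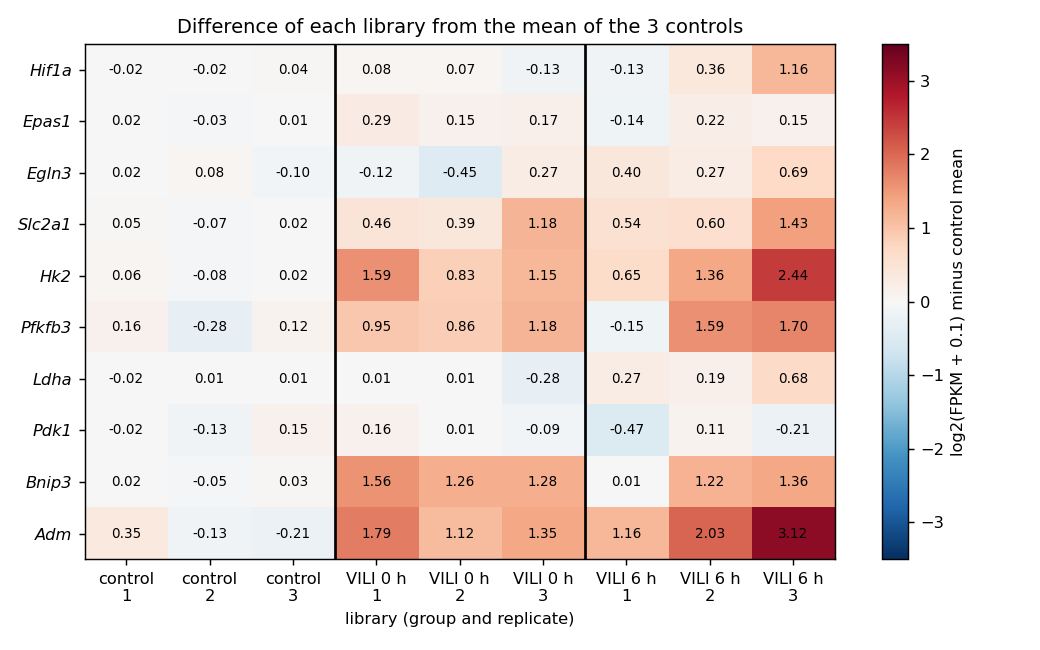
Difference of each library (columns) from the mean of the 3 controls on log2(FPKM + 0.1), for the 10 genes (rows), with the value written in each cell. VILI 6 h replicate 3 reaches 3.12 for Adm and 2.44 for Hk2, while VILI 6 h replicate 1 is at 0.01 for Bnip3 and -0.15 for Pfkfb3.

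Cell type markers also differed between libraries. The summed FPKM of 14 neutrophil markers (S100a9 the most abundant) ran from 115 to 133 in control mice, from 729 to 1160 at VILI 0 h and from 633 to 3080 at VILI 6 h, with 11 and 13 of the 14 rising and none at 0 in every library. VILI 6 h replicate 3, the library with the highest values of 7 members, also had the highest sum (3080), and VILI 6 h replicate 1 the lowest of the ventilated libraries (633). The sum of replicate 3 was mostly S100a9 (1100 FPKM), Lcn2 (881 FPKM) and S100a8 (545 FPKM). Within VILI 6 h the markers were highest in replicate 3, except Csf3r (36.8 FPKM in replicate 1, 24.7 and 27.9 FPKM in the others). Over all libraries Csf3r and Clec4d were highest in VILI 0 h replicate 3 (57.1 and 27.7 FPKM). At VILI 0 h the order was another: replicate 1 had the lowest neutrophil sum of its group (729) and the highest values of the group for most members, among them Hk2, Bnip3, Adm and Epas1. Slc2a1, Pfkfb3 and Egln3 were highest in replicate 3 of that group, with a sum of 1050. Alveolar macrophage marker sums were 314 to 399, 483 to 540 and 331 to 716, monocyte sums 118 to 135, 95.2 to 213 and 187 to 238, and endothelial sums 1180 to 1240, 1130 to 1380 and 1080 to 1230 in control, VILI 0 h and VILI 6 h. Of the alveolar macrophage markers 5 of 8 rose at VILI 0 h, 1 rose and 1 fell at VILI 6 h and 4 fell between the times, and of the monocyte markers 3 of 6 rose at VILI 6 h. Behind the endothelial sums, 4 of 10 markers fell and none rose at VILI 6 h (median log2 -0.32), beside 1 up and 1 down at VILI 0 h. Tie1 had a mean of 60.9 FPKM in controls and 41.2 FPKM at VILI 6 h, while 4 of the 10 had a positive fold change, among them Cldn5 with means of 138 and 174 FPKM and Cdh5 with 251 and 285 FPKM. Lymphocyte marker sums were 40 to 51.9 in controls, 21.3 to 60.6 at VILI 0 h and 12.5 to 36.1 at VILI 6 h, where 2 of the 5 tested fell. The cardiac muscle sum was 302 in VILI 0 h replicate 3, a library without which the VILI 0 h call of Slc2a1 was lost, against 136 to 167 in the other libraries. Alveolar type 2 markers, which define lung tissue, summed to 13800 to 15100, 13700 to 16000 and 12900 to 13900. Alveolar type 1 sums were 1130 to 1170, 1190 to 1450 and 1030 to 1460, with 2 of 6 markers rising at each time. Fibroblast and smooth muscle sums overlapped in the 3 groups (517 to 615, 573 to 602 and 511 to 664). Erythroid sums were 3230 to 4190 in controls and 4920 to 5420 at VILI 0 h, without overlap, and 489, 3450 and 3870 at VILI 6 h, where 4 of 7 markers were lower than at VILI 0 h. Airway epithelial sums were 25100 to 27600 in controls, 30000 to 32700 at VILI 0 h, again without overlap, and 41500, 24800 and 23500 at VILI 6 h. The part of these differences in the results was not tested. In whole lung, more cells of a type and more RNA per cell cannot be told apart.

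Genes around the members were taken from 5 lists of 74 genes of the pathway, all 74 of which were tested. At VILI 0 h 16 rose and 4 fell, at VILI 6 h 19 rose and 7 fell, and between the times 6 rose and 5 fell, beside the background shares given above for the members. Without VILI 6 h replicate 1, 39 passed the test at VILI 6 h and 27 between the times, where 38.8% and 22.4% of all genes did. Without VILI 6 h replicate 3 the counts were 19 and 8, where 14.1% and 9.68% of all genes passed. The median log2 fold change of the 74 was 0.02, 0.01 and -0.07 in the 3 comparisons, beside -0.07, -0.09 and -0.02 for all genes. More of the 74 rose than fell at VILI 0 h and VILI 6 h, and the difference between the members and the 74 was not tested.

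Among 14 partners and regulators of HIF, 3 rose at each time and 0 fell. Hif3a, whose product can restrain the other HIF subunits, was at 0.975, 1.12 and 0.933 FPKM in controls, 7.36, 5.89 and 11.2 FPKM at VILI 0 h and 0.809, 12.8 and 9.55 FPKM at VILI 6 h. It rose at VILI 0 h (log2 2.85, adjusted p = 0.141, limma) and at VILI 6 h (log2 2.13, adjusted p = 0.196), with VILI 6 h replicate 1 below every control, and the latter call was lost without any 1 control and without VILI 6 h replicate 2 or 3. Egln2, which encodes the hydroxylase PHD1, rose by 0.33 and 0.46 on the log2 scale at the 2 times (adjusted p = 0.301 and 0.14), the first of these calls kept in 9 of 19 alternative analyses. Cited2, a competitor of HIF-1α for the coactivator p300, rose by 0.30 at VILI 0 h (adjusted p = 0.307, kept in 8 of 19) and was at -0.13 at VILI 6 h (adjusted p = 0.587). Its relative Cited4 was at 0.46 at VILI 0 h (adjusted p = 0.404) and rose by 1.10 at VILI 6 h (adjusted p = 0.0745). The lowest of the list at both times was Rwdd3, which encodes a protein that favours sumoylation of HIF-1α (log2 -0.51, adjusted p = 0.424, at VILI 0 h and -0.53, adjusted p = 0.323, at VILI 6 h). Egln1, Vhl and Arnt, the core of the oxygen-sensing step, did not pass the test in either comparison with control.

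Of 19 other genes of glucose uptake and glycolysis, 5 rose and 0 fell at VILI 0 h, and 9 rose and 1 fell at VILI 6 h. Slc2a3 was the one with an adjusted p under 0.05: 2.51, 2.42 and 3.13 FPKM in controls stood against 7.74, 8.78 and 11 FPKM at VILI 0 h, without overlap (log2 1.73, adjusted p = 0.046, limma). At VILI 6 h Slc2a3 held 4.52, 8.95 and 9.92 FPKM (log2 1.44, adjusted p = 0.0587). Also higher at VILI 6 h were the hexokinase gene Hk3 (log2 1.35, adjusted p = 0.115), Pfkfb4 (0.46, adjusted p = 0.135), the pyruvate kinase gene Pkm (0.35, adjusted p = 0.0736) and the aldolase gene Aldoa (0.34, adjusted p = 0.123). At VILI 0 h Hk3 (1.0, adjusted p = 0.23) and Pfkfb4 (0.36, adjusted p = 0.249) also rose, while Pkm (0.15) and Aldoa (0.14) did not pass the test. The muscle-type phosphofructokinase gene Pfkm fell by 0.56 on the log2 scale at VILI 6 h (adjusted p = 0.149) and was at -0.04 at VILI 0 h (adjusted p = 0.939). Hk1 had the lowest value of the list at VILI 0 h, -0.21 (adjusted p = 0.399), and rose by 0.33 at VILI 6 h (adjusted p = 0.163). Gapdh, known for many near-identical pseudogenes, ran from 1.46 to 13.3 FPKM, and how its reads were assigned was not tested.

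Of 12 genes that handle pyruvate and lactate, 2 rose and 1 fell at each time. Pdk4, a starvation- and glucocorticoid-responsive relative of Pdk1, was at 1.99, 2.03 and 2.5 FPKM in controls, 30.7, 15.6 and 29.4 FPKM at VILI 0 h and 2.24, 19.2 and 22.6 FPKM at VILI 6 h. It rose by 3.42 at VILI 0 h (adjusted p = 0.0769, limma) and by 2.16 at VILI 6 h (adjusted p = 0.161) on the log2 scale, and VILI 6 h replicate 1 again lay among the controls. The VILI 6 h call was lost without VILI 6 h replicate 2 or 3. Slc16a3, which encodes the lactate exporter MCT4, rose by 1.16 and 1.53 (adjusted p = 0.117 and 0.0598), and Pdp1, which encodes a phosphatase that switches pyruvate dehydrogenase on, fell by 0.58 and 0.47 (adjusted p = 0.104 and 0.134).

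Of 24 other genes known as HIF targets, 5 rose and 2 fell at VILI 0 h, and 4 rose and 4 fell at VILI 6 h. Angptl4, an inhibitor of lipoprotein lipase, rose by 3.09 at VILI 0 h on the log2 scale (adjusted p = 0.141), from 3.35, 5.49 and 6.11 FPKM in controls to 47.2, 33.1 and 46.6 FPKM. At VILI 6 h it held 2.87, 43.8 and 47.2 FPKM and did not pass the test (log2 1.89, adjusted p = 0.261), with replicate 1 below every control. Ddit4, an inhibitor of mTOR signalling, rose by 2.70 and 2.20 (adjusted p = 0.133 and 0.165), with 7.70 FPKM in VILI 6 h replicate 1 against 6.47 to 6.75 FPKM in controls, and its VILI 6 h call was lost without VILI 6 h replicate 2 or 3. P4ha2, a collagen prolyl hydroxylase gene, rose by 0.77 and 1.05 (adjusted p = 0.0738 and 0.0257, limma), the latter under 0.05, and Ndrg1 rose by 0.45 and 0.75 (adjusted p = 0.196 and 0.0589), without overlap with the controls at either time. Against these, Vegfa, the vascular growth factor gene, fell by 0.47 at VILI 0 h (adjusted p = 0.249, kept in 14 of 19 alternative analyses), from 311, 290 and 282 FPKM to 212, 213 and 210 FPKM, and at VILI 6 h its log2 fold change was -0.37 (adjusted p = 0.28). Tfrc, the transferrin receptor gene, fell by 0.85 and 0.95 (adjusted p = 0.0899 and 0.0634) and was the lowest of the list at both times.

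Receptors of adrenomedullin were followed beside the ligand gene Adm. Calcrl, the receptor itself, was at 342, 404 and 431 FPKM in controls, 191, 371 and 242 FPKM at VILI 0 h and 267, 231 and 156 FPKM at VILI 6 h. It fell by 0.60 (adjusted p = 0.289) and 0.88 (adjusted p = 0.125, limma) on the log2 scale, with overlap of 1 library at VILI 0 h and none at VILI 6 h. Of the accessory proteins that turn it into an adrenomedullin receptor, Ramp2 rose by 0.35 at VILI 0 h (adjusted p = 0.27), and Ramp3 by 1.35 at VILI 6 h (adjusted p = 0.243), while Ramp2 at VILI 6 h (0.20) and Ramp3 at VILI 0 h (0.74) did not pass the test. These calls were kept in 11 and 4 of 19 alternative analyses, and that of Calcrl at VILI 0 h in 11 of 19.

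**Figure D5:**
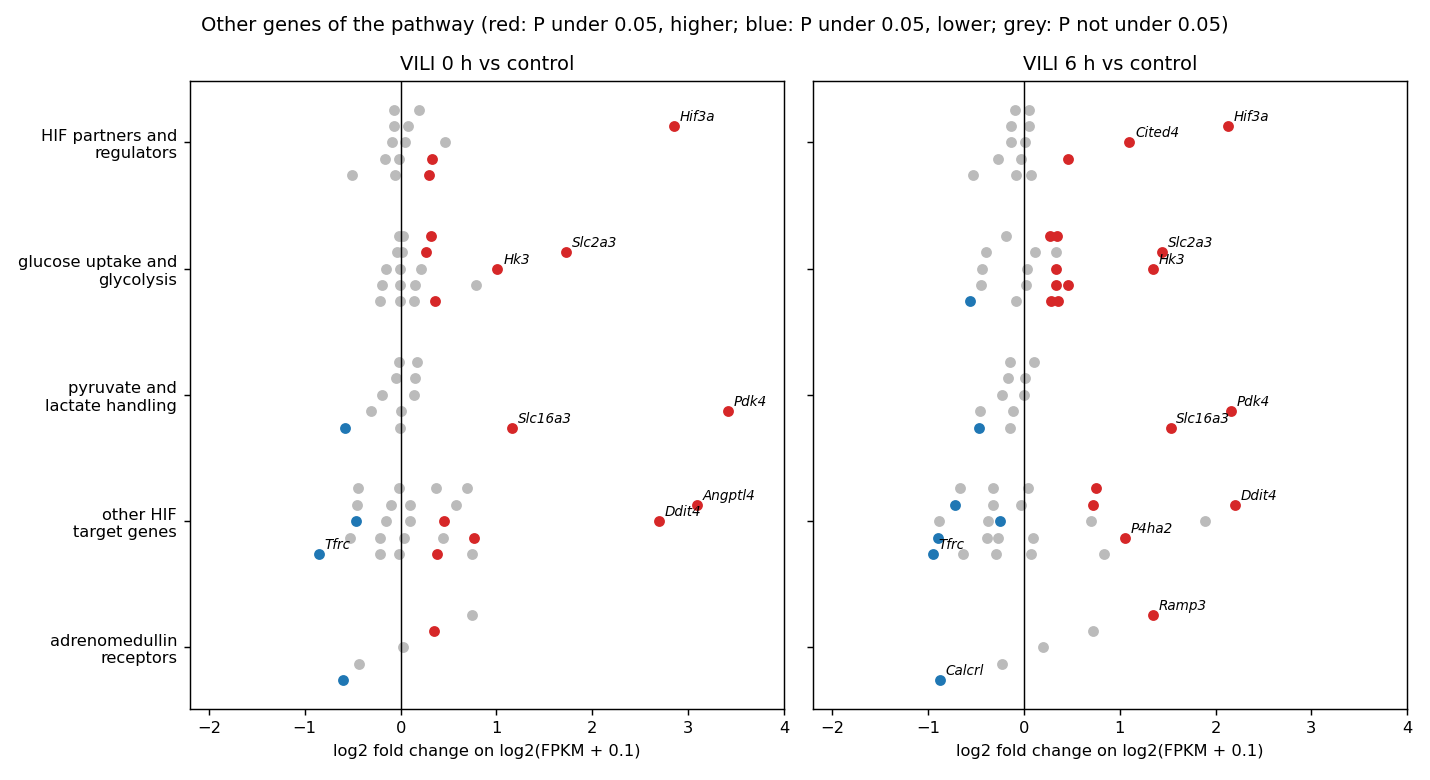
Log2 fold change on log2(FPKM + 0.1) (horizontal axis) of the 74 listed genes in 5 groups (vertical), at VILI 0 h (left) and VILI 6 h (right) vs control, in red where a gene rose and in blue where it fell with P under 0.05 in limma. Most points lie within 1 of 0, with Pdk4 (3.42), Angptl4 (3.09), Hif3a (2.85) and Ddit4 (2.70) far to the right at VILI 0 h.

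For 4 members the genes with the most similar profile were sought among 13066 protein-coding genes, as the root mean square difference of log2(FPKM + 0.1) over the 9 libraries after centring each gene. Nearest to Hif1a were Cd302 (0.07), Ifitm3 (0.10) and Ceacam1 (0.12), where the median gene lay at 0.49. For Epas1 they were Fbxo38 (0.04), Rab3gap1 (0.04) and Sf3b1 (0.05), where the median was 0.29. For Hk2 they were Slc7a5 (0.21), F3 (0.24) and Plxna2 (0.26) with a median of 0.87, and for Adm they were Lrg1 (0.30), Maff (0.35) and Pla1a (0.36) with a median of 1.09. F3 encodes tissue factor and Slc7a5 an amino acid transporter. The 9 libraries share groups and controls, and these values are given as a description.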

How the data were processed

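Lung RNA of 9 mice, grouped by their treatment labels, was depleted of ribosomal RNA and sequenced. The deposited values are FPKM per transcript row: the authors removed adapter and low-quality reads, aligned the rest to GRCm38 (TopHat2 2.0.9, Bowtie2 2.0.6), built transcripts using both Scripture and Cufflinks, and took FPKM from Cuffdiff 2.1.1 (versions and build from the submitters' processing notes). Sources differ on the library kit, so whether counting used strand is not settled, and reads of the antisense locus that spans Epas1 (0.363 to 1.06 FPKM) cannot be told from those of the gene. Of 23713 Ensembl gene IDs in 60108 rows, 23580 matched GENCODE M21 (GRCm38), from which names and coordinates came. Depth in reads is not given by the table, and no interval from counts was made.

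FPKM were summed per gene. Genes with a mean of at least 0.1 FPKM over 9 libraries were fitted in limma 3.58.1 (R 4.3.3) on log2(FPKM + 0.1), with group as the only factor and a trend in eBayes. This scale understates fold changes of genes near 0.1 FPKM. The ratio of Hif1a to Epas1 was tested by exact two-sided permutation. Limma p-values rest on a spread between mice that is shared by all 9 libraries and moderated over genes. A comparison therefore also carries the spread of the group left out of it. On simulated data for VILI 0 h vs control over 19378 genes, with 200 changed by 1 on the log2 scale, 93.5% of these passed P under 0.05 and 51% an adjusted p of 0.05, as did 5.15% of unchanged genes for P. The simulation gave a gene the same spread in all 9 libraries and drew genes independently, the changed ones from among the more abundant. It does not cover groups of unequal spread or a library that deviates as a whole, as VILI 6 h replicate 1 does. The members and gene lists were chosen with earlier results of these data known. Named were all members, and of each list the genes with an adjusted p under 0.05 or, without any, up to 6 with the smallest P under 0.05, plus its highest and lowest gene with a mean of at least 1 FPKM. Alternatives were pseudocounts of 0.01 and 1, a minimum mean of 1 FPKM or none, median centring, scaling to one FPKM sum, the highest row of a gene, eBayes with no trend, a block for the replicate number, a fit on just the 6 libraries of a comparison and leaving out each library. RefSeq gave the promoter sequences. Python 3.11.15 was used for tables and figures.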

Additional observations from a re-analysis of the deposited data

Results flagged for a closer look

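The difference between VILI 6 h and VILI 0 h passed an unadjusted P of 0.05 in limma for 1 member and 11 of the other named genes, and none of these had an adjusted p under 0.05. Among members it was Ldha (log2 0.46, adjusted p = 0.329). Of the glycolysis genes, the hexokinase gene Hk1 was higher at VILI 6 h by 0.54 (adjusted p = 0.189), with all VILI 0 h values below the controls and all VILI 6 h values above them. Pkm was higher by 0.19 (adjusted p = 0.458) and the enolase gene Eno1 by 0.29 (adjusted p = 0.489), and Pfkm was lower by a log2 value of -0.52 (adjusted p = 0.403). Cited4 was higher by 0.64 (adjusted p = 0.44) while Cited2 was lower at -0.43 (adjusted p = 0.348). The pyruvate dehydrogenase phosphatase gene Pdp2 was lower at -0.61 (adjusted p = 0.464). Bnip3l, the relative of Bnip3, was lower at -0.35 (adjusted p = 0.333), and Ankrd37, a hypoxia-induced gene, at -1.36 (adjusted p = 0.381). Bhlhe40, which encodes a transcriptional repressor, was higher by 0.99 (adjusted p = 0.479) and Ackr3, a scavenger receptor of adrenomedullin and of Cxcl12, by 1.16 (adjusted p = 0.412). Of the 11 genes that are not members, 2 (Cited2 and Hk1) passed in every alternative analysis, and 7 did not pass without VILI 6 h replicate 3. Bnip3l took the opposite direction when the highest row of each gene stood for the gene.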

How the results depend on the processing

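At VILI 0 h Hk2, Bnip3 and Adm passed the test in 19 of 19 alternatives, Slc2a1 in 15 and Pfkfb3 in 12. At VILI 6 h Slc2a1, Hk2 and Adm passed in 19 of 19, Bnip3 in 17, Ldha in 16 and Pfkfb3 in 14. The number of members called ran from 3 to 6, 3 to 7 and 1 to 5 in the 3 comparisons over the 9 analyses that left out 1 library, that of the 74 pathway genes from 11 to 25, 19 to 39 and 8 to 27, and that of all genes from 1979 to 4493, 2543 to 7526 and 1407 to 4350. The highest counts of the comparisons with VILI 6 h came without VILI 6 h replicate 1, where 1343, 4512 and 356 genes had an adjusted p under 0.05 beside 55, 136 and 0 with it. The lowest counts of all genes came without control replicate 2 (1979 and 2543, against 3130 and 3952) and, between the times, without VILI 0 h replicate 3 (1407, against 1938). In those 9 analyses the log2 ratio of Hif1a to Epas1 ran from -0.25 to -0.14, 0.08 to 0.58 and 0.27 to 0.78. Log2 fold changes that crossed 0 in them were, at VILI 0 h vs control, Hif1a (-0.03 to 0.08), Egln3 (-0.28 to 0.07), Ldha (-0.13 to 0.01) and Pdk1 (-0.04 to 0.10) and, between the times, Slc2a1 (-0.11 to 0.43), Hk2 (-0.19 to 0.71) and Pfkfb3 (-0.28 to 0.65). None of these 7 passed the test in the full data.

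Between the times, 2 members were called with a pseudocount of 1, with libraries scaled to one sum and with eBayes without a trend, and 0 with the highest row of each gene, beside 1. With only the 6 libraries compared, 5094 and 1210 genes were called at VILI 0 h and between the times, beside 3130 and 1938, an adjusted p under 0.05 was reached by 1597, 36 and 1 genes in the 3 comparisons, beside 55, 136 and 0, and by 4 members at VILI 0 h, beside 0, and 7 pathway genes were called between the times, beside 11. Median centring turned the VILI 0 h value of Egln3 to 0.01 and of Ldha to 0.03, scaling to one sum that of Hif1a to -0.05 and of Pdk1 to -0.03, and the highest row that of Hif1a to -0.04. Centring moved the median of all genes at VILI 0 h from -0.07 to 0.05, and the share of higher genes among those called from 42.1% to 61.2% at VILI 0 h and from 40.1% to 58.1% at VILI 6 h. Scaling to one sum gave 30.4% at VILI 0 h, and 64.3% beside 50.6% between the times. The cause of these changes was not tested.

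With the replicate number as a block, 5, 6 and 1 members, 18, 25 and 8 pathway genes and 2816, 3485 and 1693 genes were called, and 10, 43 and 0 genes had an adjusted p under 0.05. Pairing by number leaves the mean differences in the ratio of Hif1a to Epas1 as they are by construction, and gave an exact p of 0.25 in each comparison, the smallest that 3 pairs can give. Libraries with the same number did not deviate together (correlations from -0.221 to 0.0175), and nothing in the labels pairs them. Depth in reads is not known from the table, and Egln3, at under 1 FPKM on average, was not tested with a minimum mean of 1 FPKM.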
